A study of Homo sapiens with 27 samples.

Results

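The 30 genes described here encode the enzymes that build cholesterol and fatty acids from acetyl-CoA, the transcription factors SREBF1 and SREBF2 that drive their transcription, the sterol sensor INSIG1 and the sterol carrier STARD4. They were chosen by symbol from the known pathways with no cut on their values, although earlier results of these data were known. All 30 were found among the 57165 genes of the count table. By role, 8 belong to the mevalonate pathway and its entry (ACAT2, AACS, HMGCS1, MVK, PMVK, MVD, IDI1 and FDPS). Another 3 make squalene (FDFT1) or carry it to lanosterol (SQLE and LSS), and 8 carry lanosterol to cholesterol (CYP51A1, TM7SF2, MSMO1, NSDHL, HSD17B7, EBP, SC5D and DHCR7). Another 4 are regulators or sterol carriers (SREBF1, SREBF2, INSIG1 and STARD4), and 7 make, elongate or desaturate fatty acids (ACLY, ACACA, FASN, SCD, ELOVL6, FADS1 and FADS2).

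Transcript abundance was measured by RNA-seq in 27 libraries from SUM159 and MDA-MB-231, human triple negative breast cancer lines with a mesenchymal phenotype, in 9 groups of 3. ZEB1, a transcriptional repressor that maintains the mesenchymal state, was targeted at its promoter with dCas9-KRAB, a nuclease-dead Cas9 joined to the KRAB repressor domain, delivered together with the guide from a single lentiviral vector. In SUM159 the run 1 groups were untransduced wild type cells, cells with the vector and no guide (No gRNA), cells with the single guide gRNA 4, and cells with a pool of 4 guides (All gRNA), and 3 more wild type libraries came from run 2. In MDA-MB-231, all in run 2, there were wild type cells, No gRNA cells and 2 targeted groups whose labels conflict. The sample titles name one of them gRNA 4 and the other all 4 guides, while the column names of the table name them the other way round, so they are called set 1 (titled gRNA 4) and set 2 (titled with all 4 guides) and neither was assigned to a guide. All transduced groups, No gRNA included, carried dCas9-KRAB and had been selected with puromycin at 1.25 µg per mL in SUM159 and 0.75 µg per mL in MDA-MB-231. SUM159 was grown in F12 medium with insulin and hydrocortisone and MDA-MB-231 in high-glucose DMEM, both with serum, so line and medium cannot be told apart. The study describes the replicates as individual clones, and the p-values here measure the spread between those samples. Whether the clones of a group came from separate transductions is not stated, so the p-values may not cover that variation.

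Cells make cholesterol when membrane sterols run low. The precursors of the SREBP transcription factors sit in the endoplasmic reticulum bound to SCAP, and INSIG proteins hold that complex there while sterols are plentiful. When sterols fall, the complex moves to the Golgi, the proteases encoded by MBTPS1 and MBTPS2 release the active factor, and it enters the nucleus, where the SREBF2 product acts mainly on cholesterol genes and the SREBF1 product mainly on fatty acid genes. A surplus of sterol acts through a separate route: oxysterols bind the LXR receptors, encoded by NR1H3 and NR1H2, which raise transcription of the exporters ABCA1 and ABCG1 and also of SREBF1 and SCD. Dividing tumor cells use both pathways to build membranes, and mevalonate also feeds protein prenylation and ubiquinone.

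The libraries held 15461200 to 21473757 estimated counts, and mitochondrial genes took 1.40% to 4.39% of them. ZEB1 was at 73.6 ± 3.45 CPM (counts scaled to library size, mean ± SD, n = 3) in the SUM159 No gRNA cells, at 3.45 ± 1.01 CPM after gRNA 4 and at 0.733 ± 0.328 CPM after the pool. The MDA-MB-231 No gRNA cells had 110.1 ± 10.0 CPM of it, against 5.36 ± 0.527 CPM for set 1 and 4.74 ± 0.894 CPM for set 2. Of the markers that define the lines, ESR1 and PGR were at or near 0 in all 9 groups, ERBB2 had means of 42.0 to 63.8 CPM and VIM had means between 1326 and 4055 CPM. CLDN3, CLDN4 and CLDN7 were near 0 in SUM159, whereas CLDN4 at 65.9 to 134 CPM and CLDN7 at 17.5 to 84.9 CPM were not low in MDA-MB-231. A set of 5 proliferation genes (MKI67, TOP2A, MCM2, PCNA and CCNB1) moved with several of the groups, and its values stand beside the results they accompany.

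Promoters of the members that recur in the results are shown first, because the same sterol-responsive factors are known to act on them. RefSeq promoters (GRCh38.p14) were found for 26 of the 30 members, and the 250 bases before each start were searched on both strands for a sterol regulatory element (TCACNCCAC), for CCAAT, which binds the SREBP partner NF-Y, and for the ZEB1 E-box CAGGTG. The sterol element was present in 1 member (3.85%, against 0.883% of 35116 promoters), CCAAT in 17 (65.4% against 32%) and CAGGTG in 7 (26.9% against 17.5%). The following stretches run from 5′ to 3′ on the strand of the gene, and their capitals mark any of these 3 motifs on either strand. They leave out bases in annotated untranslated regions. Other bases of annotated genes were kept, and the DHCR7 stretch lies inside the annotated span of its gene. SREBF1 and SCD are shown because they were lower in all 4 targeted groups, and SREBF2 because it alone held the sterol element. DHCR7, EBP and IDI1 come from the 9 members lower in MDA-MB-231 No gRNA than in wild type and higher in set 2 than in No gRNA. They have the 3 largest set 2 values among those with a promoter (ACAT2, FASN, FDPS, ACLY, NSDHL and SQLE are the others of the 9). Both comparisons use the same No gRNA libraries with opposite sign, so a low No gRNA level alone favours this pattern. The share of all genes that show it was not counted.
SREBF1: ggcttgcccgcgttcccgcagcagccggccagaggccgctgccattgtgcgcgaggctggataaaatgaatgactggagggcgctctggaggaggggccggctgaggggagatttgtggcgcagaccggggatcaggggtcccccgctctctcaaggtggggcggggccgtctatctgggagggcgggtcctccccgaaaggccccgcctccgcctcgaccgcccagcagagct
SCD: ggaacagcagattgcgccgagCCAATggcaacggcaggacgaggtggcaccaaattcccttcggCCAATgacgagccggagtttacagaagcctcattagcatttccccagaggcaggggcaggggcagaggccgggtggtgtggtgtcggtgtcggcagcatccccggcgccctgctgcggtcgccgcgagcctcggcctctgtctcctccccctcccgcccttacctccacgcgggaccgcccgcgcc
SREBF2: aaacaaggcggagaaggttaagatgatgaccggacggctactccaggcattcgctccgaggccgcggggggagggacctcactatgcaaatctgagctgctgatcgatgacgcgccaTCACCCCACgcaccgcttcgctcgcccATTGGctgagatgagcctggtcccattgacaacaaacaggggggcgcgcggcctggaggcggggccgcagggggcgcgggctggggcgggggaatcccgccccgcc
DHCR7: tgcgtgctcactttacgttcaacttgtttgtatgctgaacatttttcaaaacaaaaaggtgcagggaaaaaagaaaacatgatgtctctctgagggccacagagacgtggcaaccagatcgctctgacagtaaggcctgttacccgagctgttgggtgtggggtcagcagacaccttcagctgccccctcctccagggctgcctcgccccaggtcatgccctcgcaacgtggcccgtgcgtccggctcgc
EBP: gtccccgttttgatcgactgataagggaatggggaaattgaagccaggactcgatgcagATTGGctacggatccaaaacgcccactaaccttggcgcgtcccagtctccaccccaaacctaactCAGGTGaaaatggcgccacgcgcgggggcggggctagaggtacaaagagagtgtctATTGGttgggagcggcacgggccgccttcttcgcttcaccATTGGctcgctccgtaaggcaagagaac
IDI1: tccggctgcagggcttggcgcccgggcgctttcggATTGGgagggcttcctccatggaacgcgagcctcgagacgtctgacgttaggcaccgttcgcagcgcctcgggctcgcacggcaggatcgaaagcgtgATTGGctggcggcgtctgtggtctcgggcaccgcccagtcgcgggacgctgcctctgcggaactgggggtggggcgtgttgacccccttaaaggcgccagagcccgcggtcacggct
On the minus strand, the stretches lie at chr17:17837003-17837236 for SREBF1, chr11:71449044-71449293 for DHCR7 and chr10:1049120-1049369 for IDI1. On the plus strand they lie at chr10:100346983-100347232 for SCD, chr22:41832855-41833104 for SREBF2 and chrX:48521558-48521805 for EBP. In SREBF2 the sterol element begins at position -133 from the start, and in EBP the E-box begins at -126. The SREBF1 and DHCR7 stretches held none of the 3 letter strings, which says only that they are absent from these windows. The matches are descriptions of the sequence, and binding was not measured in these libraries.

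**Figure D1:**
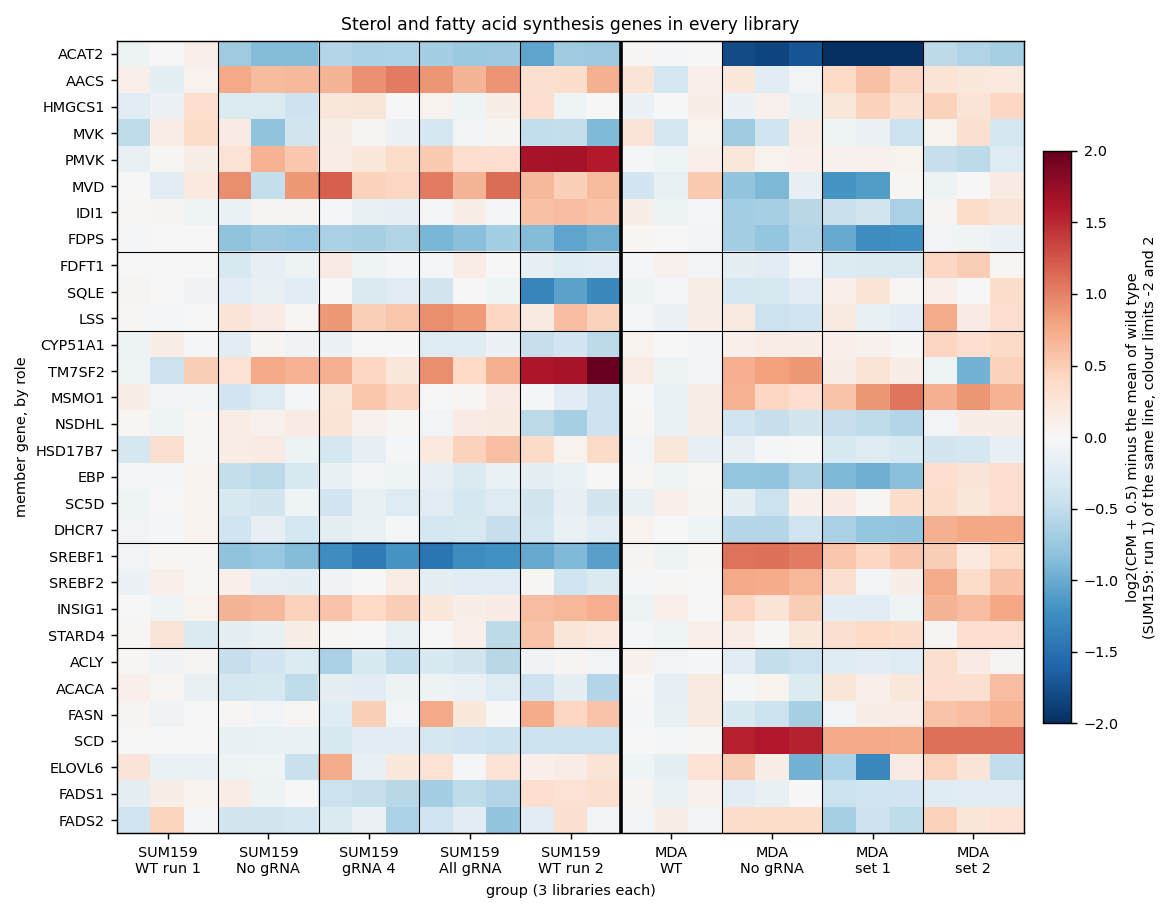
Colour shows log2(CPM + 0.5) of each of the 30 genes (rows, by role) in each of the 27 libraries (columns, by group), minus the mean of the wild type libraries of the same line (run 1 for SUM159), with colour limits at -2 and 2. The MDA-MB-231 No gRNA and set 1 columns are blue for ACAT2 and red for SCD, and the set 2 columns return toward white for ACAT2, EBP and FDPS.

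In SUM159 cells with ZEB1 targeted, a small group of members that included SREBF1 fell, and in each comparison 25 of the 30 did not pass the test. With All gRNA, 1 of the 30 members rose (LSS) and 4 fell (SREBF1, INSIG1, SCD and FADS1) by limma's moderated test, in which a gene counts as changed when its adjusted p over the 15147 genes tested is under 0.05. Among all genes tested, 5.93% rose and 4.89% fell. With gRNA 4, 2 members rose (MSMO1 and EBP) and 3 fell (SREBF1, SCD and FADS1), against 6.11% and 4.91% of all genes. By role, none of the 8 mevalonate genes passed in either comparison. No member passed TREAT, the test for a fold change beyond 2 (log2 of 1) that 0.396% of all genes passed with All gRNA and 0.390% with gRNA 4. The median log2 fold change of the members was 0.03 with All gRNA and 0.04 with gRNA 4, and that of all genes lay at 1e-04 and -7e-04. Both comparisons use the same No gRNA libraries, so their values are given side by side and neither is independent of the other.

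SREBF1, the gene of the SREBP-1 precursors, was at 41.6, 42.9 and 39.5 CPM in the SUM159 No gRNA replicates 1, 2 and 3. It was at 30.3, 27.4 and 31.7 CPM with gRNA 4 and at 26.0, 30.2 and 31.1 CPM with All gRNA. All 6 targeted libraries lay below all 3 No gRNA libraries. The log2 fold change was -0.50 (adjusted p = 0.00293) with All gRNA (SE 0.0856) and -0.48 (adjusted p = 0.00361) with gRNA 4 (SE 0.086). The gene spans chr17:17810399-17837002 and overlaps RAI1 on the other strand, and the strandedness of the libraries is not stated. As in any bulk sample, a fall in RNA per cell and a smaller share of cells that express the gene cannot be told apart.

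SREBF2, whose product drives the cholesterol enzymes, was at 203, 168 and 167 CPM in No gRNA, 180.3, 189 and 209 CPM with gRNA 4 and 165, 162 and 162 CPM with All gRNA. The groups overlapped for gRNA 4, and neither comparison passed. The 95% intervals of its log2 fold change ran from -0.32 to 0.06 with All gRNA and from -0.09 to 0.29 with gRNA 4. INSIG1, which retains SCAP in the endoplasmic reticulum, was at 14.2, 14.0 and 12.2 CPM in No gRNA, 13.1, 11.6 and 12.4 CPM with gRNA 4 and 10.2, 9.49 and 9.80 CPM with All gRNA. It fell with All gRNA (log2 fold change -0.44, SE 0.103, adjusted p = 0.0174), in which all 3 libraries lay below the No gRNA range. That call was lost when No gRNA replicate 1 or 2 or All gRNA replicate 2 or 3 was left out (adjusted p 0.0548 to 0.0673).

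The other falls were in genes of fatty acid desaturation. FADS1, the desaturase that makes arachidonic acid, was at 170.2, 144 and 153 CPM in No gRNA. It was at 114, 112 and 104 CPM with gRNA 4 and 95.3, 108 and 102 CPM with All gRNA, with no overlap. Its log2 fold change was -0.61 (adjusted p = 0.00127) with All gRNA and -0.51 (adjusted p = 0.00343) with gRNA 4. No other member fell further in either comparison. SCD, the desaturase that makes oleic acid, was at 499, 505 and 501 CPM in No gRNA, 439.5, 472 and 472 CPM with gRNA 4 and 430.5, 422 and 408 CPM with All gRNA. Its replicates were close to each other, and it passed on a small log2 fold change of -0.25 (adjusted p = 0.00134) with All gRNA. The gRNA 4 value of -0.13 (adjusted p = 0.0486) was lost without any 1 of the 6 libraries.

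The members that rose were LSS with All gRNA and MSMO1 and EBP with gRNA 4. LSS, which closes squalene epoxide into lanosterol, was at 43.3, 40.4 and 36.6 CPM in No gRNA, 66.1, 50.3 and 53.4 CPM with gRNA 4 and 69.4, 65.5 and 48.3 CPM with All gRNA. Every targeted library was above every No gRNA library, and the test passed with All gRNA (log2 fold change 0.59, SE 0.144, adjusted p = 0.0212) but not by limma with gRNA 4 (log2 fold change 0.48, SE 0.147, adjusted p = 0.057). By the edgeR quasi-likelihood test and by DESeq2, LSS passed with gRNA 4 too (adjusted p = 0.0418 and 0.00914). Without No gRNA replicate 2 or 3 or All gRNA replicate 1 or 2, the adjusted p of LSS was 0.0641 to 0.0828. MSMO1, the methylsterol oxidase, was at 16.2, 17.8 and 21.0 CPM in No gRNA, 25.2, 31.4 and 28.8 CPM with gRNA 4 and 21.4, 21.8 and 24 CPM with All gRNA. The gRNA 4 libraries stood clear of the No gRNA libraries (log2 fold change 0.63, SE 0.116, adjusted p = 0.00437). EBP, the sterol isomerase, was at 27.5, 26.4 and 31.1 CPM in No gRNA, 34.5, 36.8 and 36.3 CPM with gRNA 4 and 34.2, 31.3 and 34.8 CPM with All gRNA. It rose with gRNA 4 (log2 fold change 0.33, SE 0.0819, adjusted p = 0.0216), a call lost without No gRNA replicate 1 or 2 or gRNA 4 replicate 2 or 3. HMGCS1, which condenses acetoacetyl-CoA to HMG-CoA, had a log2 fold change of 0.47 with gRNA 4 (adjusted p = 0.0574), which passed by edgeR and DESeq2 (adjusted p = 0.0476 and 0.0159). FASN, the fatty acid synthase, was at 386, 263 and 228 CPM with All gRNA and 230.2, 220.3 and 233 CPM in No gRNA, and All gRNA replicate 1 stood far above the other libraries while the groups overlapped. Over all 30 members the log2 fold changes ran from -0.61 to 0.59 with All gRNA and from -0.51 to 0.63 with gRNA 4.

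The pool and the single guide were also compared with each other in SUM159. No member differed between All gRNA and gRNA 4 by limma, where 0.561% of all genes were higher and 0.383% lower with the pool. At an unadjusted p under 0.05 there were 7 of the 30 members, beside 1737 of the 15147 genes tested. DESeq2 called 1 member (SCD, log2 fold change -0.13, adjusted p = 0.0476). The largest difference was in HSD17B7, a sterol ketone reductase, at 0.69 with a 95% interval of 0.23 to 1.15 and an adjusted p of 0.219. For SREBF1 the interval was -0.22 to 0.18, and for FADS1 it was -0.30 to 0.11. The 5 proliferation genes summed to 1526 to 1668 CPM in No gRNA, 1700 to 1785 CPM with gRNA 4 and 1586 to 1745 CPM with All gRNA.

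**Figure D2:**
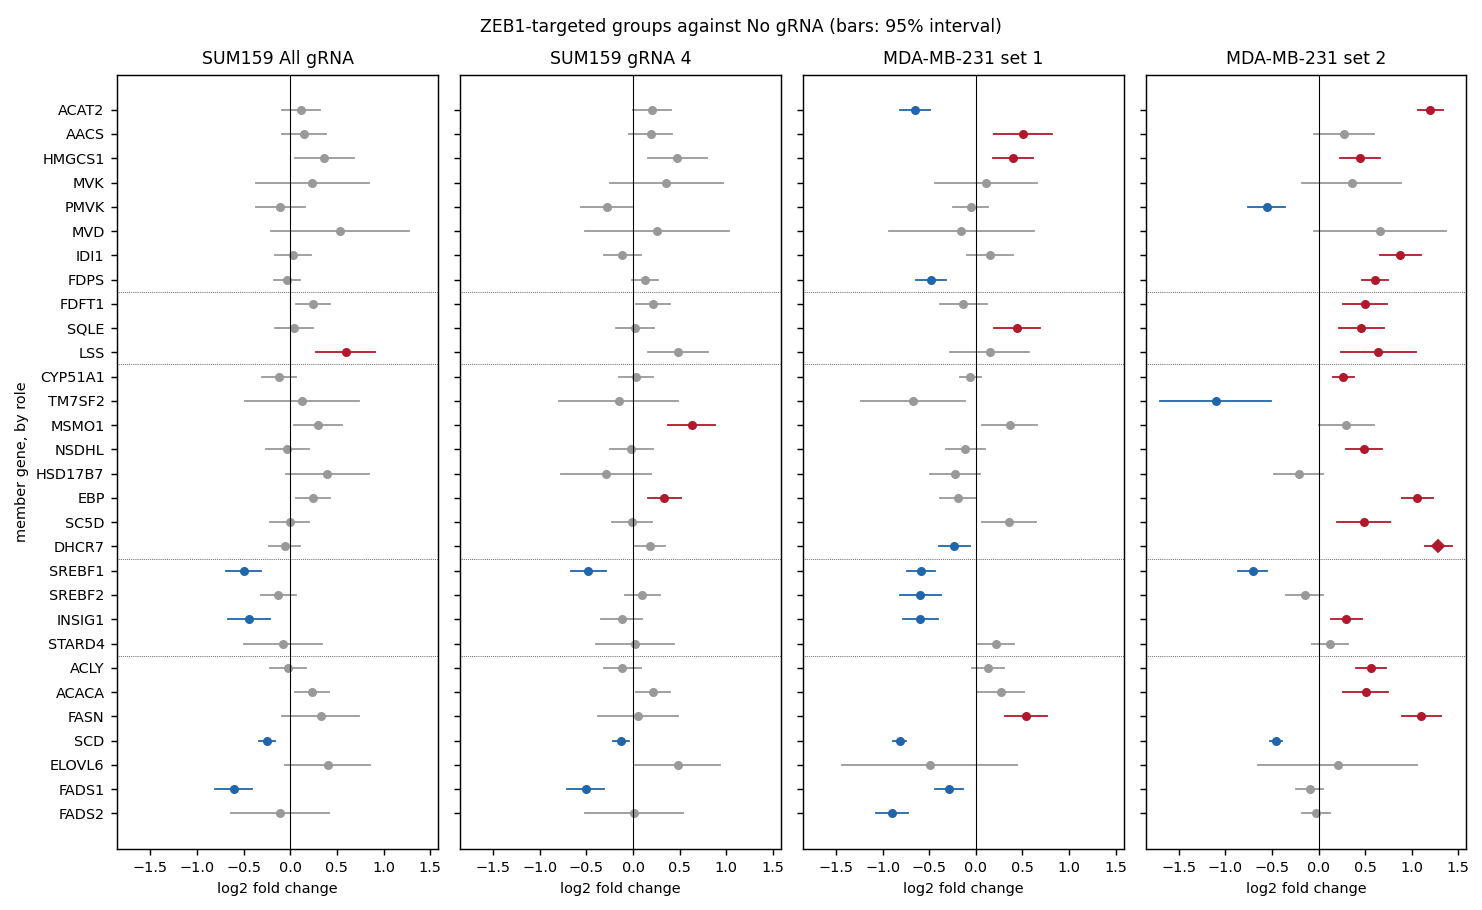
Each point is the log2 fold change of 1 member between a targeted group and the No gRNA group of its line, with its 95% interval, in the 4 targeted comparisons (panels). Red points passed limma's moderated test as higher, blue points as lower, grey points did not pass, and the diamond is DHCR7 in set 2, which also passed TREAT; the set 2 panel has 16 red points and the set 1 panel has 4.

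In MDA-MB-231 the targeted groups had different values against No gRNA. The cholesterol enzymes were mostly higher in set 2. In set 1 most of them did not pass, and about as many rose as fell. In set 1, 4 of 30 rose and 9 fell, against 20.4% and 17.3% of the 15721 genes tested. In set 2, 16 rose and 4 fell, against 27.3% and 25.1%. TREAT called no member in set 1, where 1.47% of all genes were called, and 1 member in set 2 (DHCR7), against 4.14%. The median log2 fold change of the members was -0.12 in set 1 and 0.40 in set 2, and that of all genes was -0.008 and -0.0119. By role, 4 of 8 mevalonate genes, 3 of 3 genes that make squalene or carry it to lanosterol, 5 of 8 late sterol genes and 3 of 7 fatty acid genes rose in set 2. In set 1 the counts of genes that rose in those roles were 2, 1, 0 and 1. The counts that fell there were 2, 0, 1 and 3, and 3 of the 4 regulators fell. These comparisons share the MDA-MB-231 No gRNA libraries.

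SREBF1 and SCD fell in both sets. SREBF1 was at 136, 137 and 131 CPM in No gRNA, 92.2, 84.8 and 92.5 CPM in set 1 and 90.1, 73.0 and 83.8 CPM in set 2. The 6 targeted libraries lay below the No gRNA range and above the wild type range of 66.4, 59.3 and 65.4 CPM. The log2 fold change against No gRNA was -0.59 (adjusted p = 5.09e-05) in set 1 and -0.71 (adjusted p = 6.41e-06) in set 2. SCD was at 295, 304 and 293 CPM in No gRNA, 169, 169 and 168 CPM in set 1 and 215, 215 and 216 CPM in set 2, with almost no spread inside a group. Its log2 fold changes were -0.82 (adjusted p = 5.15e-09) in set 1 and -0.46 (adjusted p = 1.51e-07) in set 2, and all targeted libraries stayed above the wild type libraries at 101, 98.1 and 101 CPM. RAI1, the gene opposite SREBF1, went the other way, with log2 fold changes of 0.64 and 0.30. SREBF1 and SCD passed as lower in 4 of 4 targeted comparisons and FADS1 in 3 of 4, with 1 No gRNA group shared within each line. The SCD call with gRNA 4 in SUM159 was the one lost without any 1 library. How many of all genes passed as lower this often was not counted. MVK, MVD, HSD17B7, STARD4 and ELOVL6 passed in none.

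SREBF2 and INSIG1 separated the sets. SREBF2 was at 127, 125 and 118 CPM in No gRNA, 93.2, 72.1 and 81.7 CPM in set 1 and 126, 97.0 and 111 CPM in set 2. It fell in set 1 (log2 fold change -0.60, SE 0.0989, adjusted p = 0.000641), and in set 2, where the groups overlapped, its value was -0.15 (adjusted p = 0.195). INSIG1 was at 37.2, 33.1 and 38.7 CPM in No gRNA, 23.3, 23.2 and 25.8 CPM in set 1 and 43.9, 42.4 and 47.0 CPM in set 2. It fell in set 1 (log2 fold change -0.60, SE 0.0865, adjusted p = 0.00025) and rose in set 2 (log2 fold change 0.30, SE 0.0767, adjusted p = 0.00655), with no overlap in either.

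Cholesterol enzymes made up most of the rise in set 2. DHCR7, which performs the last reduction in cholesterol synthesis, was at 33.0, 33.1 and 37.4 CPM in No gRNA, 31.3, 28.7 and 28.4 CPM in set 1 and 81.2, 84.9 and 84.6 CPM in set 2. Set 2 stood far above the other groups (log2 fold change 1.29, SE 0.0654, adjusted p = 2.83e-08, TREAT adjusted p = 0.0171), and the TREAT call was lost without No gRNA replicate 1 or 2 or set 2 replicate 2 or 3. In set 1 DHCR7 fell by 0.23 (adjusted p = 0.0371), a call lost without No gRNA replicate 3 or set 1 replicate 2 or 3. ACAT2, the cytosolic thiolase that makes acetoacetyl-CoA, was at 39.9, 38.3 and 41.6 CPM in No gRNA, 26.2, 26.4 and 23.7 CPM in set 1 and 95.9, 90.8 and 87.0 CPM in set 2. It fell in set 1 (log2 fold change -0.65, SE 0.0741, adjusted p = 3.97e-05) and rose in set 2 (log2 fold change 1.20, SE 0.0592, adjusted p = 2.27e-08). ACAT2 overlaps TCP1 on the other strand, and TCP1, a chaperonin subunit, had log2 fold changes of 0.11 (adjusted p = 0.0707) and 0.64 (adjusted p = 2.19e-07) in the same comparisons. The share of reads that the overlap could move between them was not tested.

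EBP was at 16.5, 16.4 and 18.6 CPM in No gRNA, 15.1, 14.3 and 15.8 CPM in set 1 and 36.3, 34.1 and 36.1 CPM in set 2, so that set 2 lay wholly above the rest (log2 fold change 1.06, SE 0.0756, adjusted p = 4.36e-07). FDPS, which makes farnesyl diphosphate, was at 85.8, 81.1 and 92.9 CPM in No gRNA, 69.1, 58.9 and 59.2 CPM in set 1 and 135, 130.5 and 128 CPM in set 2. It fell in set 1 (log2 fold change -0.48, SE 0.0727, adjusted p = 0.000351) and rose in set 2 (log2 fold change 0.61, SE 0.0632, adjusted p = 9.71e-06). TM7SF2, a sterol reductase, went against the others and was at 7.47, 7.97 and 8.27 CPM in No gRNA, 4.71, 5.34 and 4.78 CPM in set 1 and 4.03, 2.02 and 6.15 CPM in set 2. It fell in set 2 (log2 fold change -1.10, SE 0.27, adjusted p = 0.00488), where its replicates spread from 2.02 to 6.15 CPM, and it overlaps VPS51, which rose by 0.41 (adjusted p = 0.0441). The other rises in set 2 ran from 0.27 for CYP51A1, the lanosterol demethylase, to 0.88 for IDI1, the isopentenyl diphosphate isomerase. They took in FDFT1, SQLE, LSS, NSDHL, SC5D and HMGCS1, and the LSS libraries of No gRNA and set 2 overlapped. PMVK, the phosphomevalonate kinase, fell by 0.56 (adjusted p = 0.000328).

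Fatty acid genes split within both sets. FASN was at 171, 156 and 133 CPM in No gRNA, 204, 230.3 and 235 CPM in set 1 and 312, 323 and 343 CPM in set 2. It rose in set 1 (log2 fold change 0.54, SE 0.102, adjusted p = 0.00153) and in set 2 (log2 fold change 1.10, SE 0.096, adjusted p = 2.26e-06), with the 3 groups apart from each other. FADS2, the first desaturase in the synthesis of long polyunsaturated fatty acids, was at 138, 139 and 139 CPM in No gRNA, 67.9, 80.7 and 75.6 CPM in set 1 and 149, 128 and 132 CPM in set 2. It fell in set 1 (log2 fold change -0.90, SE 0.0783, adjusted p = 4.7e-06), the largest fall of any member there, and overlapped No gRNA in set 2. In set 1 FADS1 fell by 0.29 (adjusted p = 0.00578). ACLY, which makes cytosolic acetyl-CoA from citrate, rose by 0.56 (adjusted p = 6.8e-05) in set 2, as did ACACA, the acetyl-CoA carboxylase, by 0.51 (adjusted p = 0.00233). In set 1 the other rises were AACS (0.50), SQLE (0.44) and HMGCS1 (0.40), and the AACS call was lost without No gRNA replicate 2 or set 1 replicate 2.

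Set 2 was also compared directly with set 1. Here 16 of 30 members were higher and 1 (PMVK) was lower, against 25.2% and 26.3% of all genes, and TREAT called ACAT2 and DHCR7 (2 of 30, against 3.07%). The members' median was 0.40 and that of all genes -0.03. ACAT2 was higher in set 2 (log2 fold change 1.85, SE 0.0676, adjusted p = 1.64e-09), as was DHCR7 (log2 fold change 1.51, SE 0.0695, adjusted p = 1.04e-08). EBP was higher as well (log2 fold change 1.25, SE 0.0798, adjusted p = 1.69e-07). FDPS differed by 1.09 and INSIG1 by 0.89, with adjusted p = 1.69e-07 and 4.64e-06. SREBF2 was higher in set 2 by 0.45 (adjusted p = 0.00333), and SREBF1 had a value of -0.12 (adjusted p = 0.213). The calls of FADS1 (0.19) and LSS (0.49) were lost when single libraries were left out. The summed proliferation genes were at 1760 to 1845 CPM in set 2, 760.1 to 891 CPM in set 1 and 1088 to 1155 CPM in No gRNA. Against No gRNA, 5 of 5 rose in set 2 and 4 of 5 fell in set 1. Any part of the proliferation genes in the members' values was not tested. The difference between the sets goes with the group, and because of the label conflict it cannot be read as an effect of the single guide or of the pool.

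**Figure D3:**
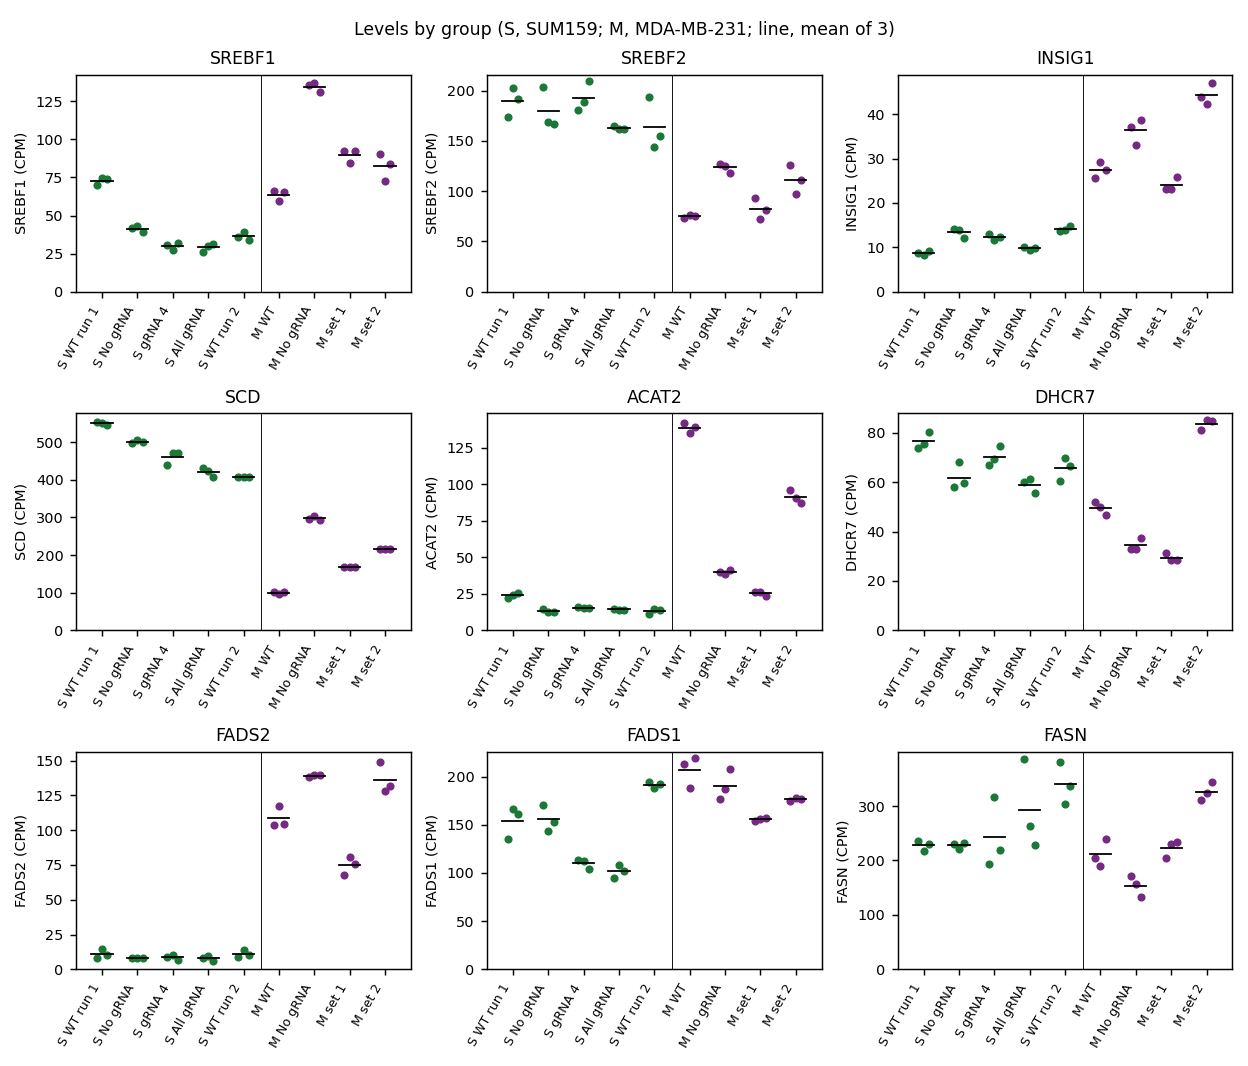
Each panel plots the CPM of 1 gene in every library by group (green SUM159, purple MDA-MB-231), with a line at the mean of 3. SREBF1 drops from No gRNA to both targeted groups in each line, and ACAT2 and DHCR7 are high in MDA-MB-231 wild type and set 2 and low in No gRNA and set 1.

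Cells with the vector and no guide were compared with wild type cells in each line, and the share of members that changed was close to that of all genes: 12 of 30 (40%) against 42.9% in SUM159 and 17 of 30 (56.7%) against 53.8% in MDA-MB-231. In SUM159, 3 members were higher in No gRNA than in wild type (AACS, INSIG1 and PMVK) and 9 were lower, against 21.0% and 21.9% of all genes, and none passed TREAT, which called 1.53% of all genes. ACAT2 was at 22.3, 24 and 25.7 CPM in wild type and 14.4, 12.9 and 12.9 CPM in No gRNA, with no overlap (log2 fold change -0.85, SE 0.0858, adjusted p = 1.34e-05). SREBF1 was at 69.9, 74.5 and 74.1 CPM in wild type, above every transduced library of the line, and fell with the vector (log2 fold change -0.83, SE 0.0743, adjusted p = 5.37e-06). FDPS was at 115, 119 and 118 CPM in wild type and 66.7, 70.7 and 69.0 CPM in No gRNA, also apart (log2 fold change -0.78, SE 0.0597, adjusted p = 1.48e-06). AACS, which makes acetoacetyl-CoA from ketone bodies, was at 33.8, 27.8 and 33.1 CPM in wild type and 53.8, 49.1 and 49.8 CPM in No gRNA and rose (log2 fold change 0.68, SE 0.114, adjusted p = 0.000568). INSIG1 was at 8.70, 8.19 and 9.19 CPM in wild type and was higher with the vector (log2 fold change 0.61, SE 0.103, adjusted p = 0.000575), while SREBF2, at 174, 202 and 191 CPM in wild type, did not pass (-0.09, adjusted p = 0.425). The remaining falls were in SCD, SC5D, DHCR7, ACLY, ACACA and EBP and ran from -0.14 to -0.45. The SC5D call was lost without any 1 of 4 of the 6 libraries. Of the 5 proliferation genes, 4 were lower and 1 was higher in No gRNA than in wild type (median log2 fold change -0.54), at 1526 to 1668 CPM summed against 1633 to 1667 CPM, and their part was not tested.

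In MDA-MB-231, 7 members rose and 10 fell in No gRNA against wild type, where 26.2% and 27.6% of all genes did, and 2 passed TREAT against 3.60%. The median of the members was -0.18, and in SUM159 it was -0.17. ACAT2 was at 142, 135 and 139 CPM in wild type, more than 3 times the No gRNA level, and its fall was the largest of any member (log2 fold change -1.85, SE 0.056, adjusted p = 3.35e-10). SCD rose from the wild type level to the No gRNA level given above (log2 fold change 1.51, SE 0.0337, adjusted p = 3.6e-11), and both passed TREAT (adjusted p = 1.16e-06 and 1.22e-06). SREBF1 rose by 1.02 (adjusted p = 3.87e-07), opposite in sign to its fall in SUM159, and SREBF2, at 73.4, 76.4 and 74.8 CPM in wild type, rose by 0.66 (adjusted p = 0.000165). TM7SF2 was at 4.85, 4.00 and 4.16 CPM in wild type and rose (log2 fold change 0.81, SE 0.257, adjusted p = 0.0198), a call lost without wild type replicate 2 or 3 or No gRNA replicate 3. EBP was at 29.5, 26.9 and 29.3 CPM in wild type and fell (log2 fold change -0.80, SE 0.0774, adjusted p = 4.92e-06). INSIG1, at 25.5, 29.3 and 27.4 CPM in wild type, rose by 0.34 (adjusted p = 0.00436).

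Other cholesterol and fatty acid enzymes fell with the vector in MDA-MB-231. FDPS, at 143, 141 and 135 CPM in wild type, fell by 0.75 (adjusted p = 1.33e-06) on the log2 scale. DHCR7, at 51.7, 49.9 and 46.7 CPM in wild type, fell by 0.58 (adjusted p = 2.94e-05), and IDI1 fell by 0.70 (adjusted p = 0.000148). FASN, at 205, 190.4 and 239.6 CPM in wild type, fell by 0.53 (adjusted p = 0.00101), and ACLY, NSDHL and SQLE had values between -0.48 and -0.36. FADS2, at 104, 117 and 104 CPM in wild type, rose by 0.30 (adjusted p = 0.00397), and MSMO1 rose by 0.43. The calls of SQLE, MSMO1 and FADS1 were each lost without any 1 of 3 or 4 of the libraries. TCP1 fell with ACAT2 here (-0.74), and RUSC1-AS1, opposite FDPS, fell by 1.66 (adjusted p = 0.00486). The proliferation genes fell from 2014 to 2192 CPM in wild type to 1088 to 1155 CPM in No gRNA, and 5 of 5 passed with a median of -1.11; their part was not tested.

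Because No gRNA and wild type differed, a targeted group can stand on different sides of the 2 controls. Against wild type, 5 members were higher and 9 lower in SUM159 All gRNA, 4 and 7 in gRNA 4, 6 and 13 in set 1 and 12 and 4 in set 2. The shares of all genes that were higher and lower were 24.4% and 24.3%, 23.2% and 23.6%, 29.6% and 29.8%, and 17.8% and 18.5% in that order. SREBF1 in set 1 was lower than No gRNA and higher than wild type (0.43, adjusted p = 0.000567), and in set 2 likewise (0.31, adjusted p = 0.00986). SCD in set 2 was 1.05 above wild type on the log2 scale (adjusted p = 3.77e-09). ACAT2 in set 2 was higher than No gRNA and lower than wild type (log2 fold change -0.65, adjusted p = 1.17e-06). In SUM159 SREBF1 was lower than both controls in all 6 targeted libraries.

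**Figure D4:**
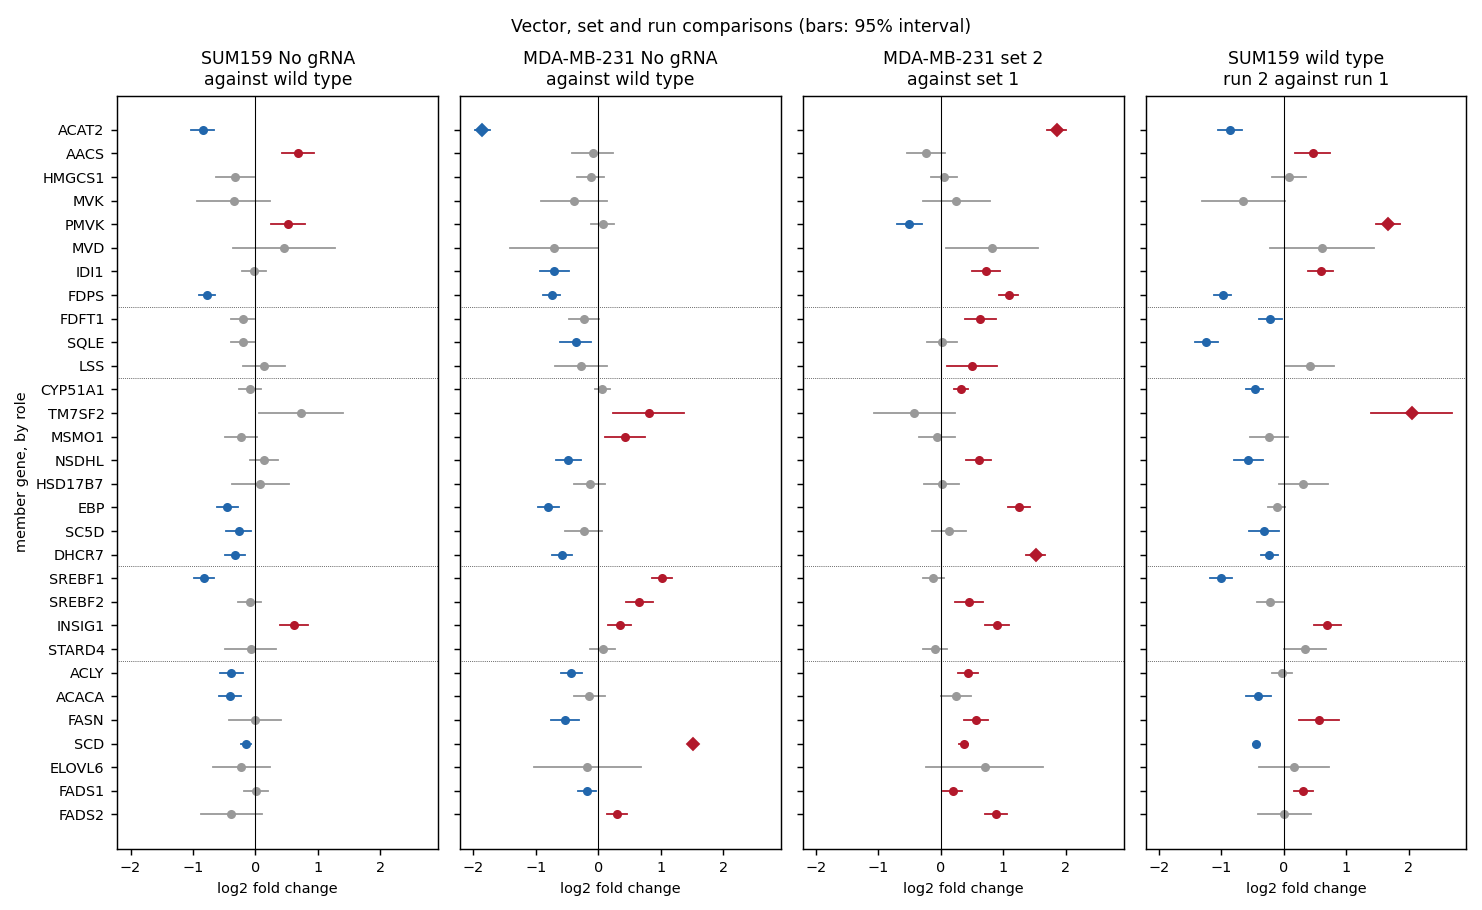
Each point is the log2 fold change of 1 member with its 95% interval, in No gRNA against wild type of each line, set 2 against set 1 and SUM159 wild type run 2 against run 1 (panels). Red and blue mark members higher and lower by limma's moderated test and grey those that did not pass; ACAT2 lies at the far left for the MDA-MB-231 vector and at the far right for set 2 against set 1.

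The wild type lines were compared within run 2, where 12 members were higher in MDA-MB-231 and 12 lower, against 36.5% and 34.7% of the 17319 genes tested. ACAT2 was at 11.2, 14.5 and 14.3 CPM in SUM159 run 2 and, as given above, 135 to 142 CPM in MDA-MB-231 (log2 fold change 3.39, SE 0.0813, adjusted p = 8.13e-20). FADS2 was at 9.22, 13.6 and 10.5 CPM in SUM159 and above 100 CPM in every MDA-MB-231 wild type library (log2 fold change 3.31, SE 0.164, adjusted p = 3.55e-14). MVK, the mevalonate kinase, was at 7.20, 7.26 and 5.39 CPM in SUM159 and 25.3, 16.5 and 22.0 CPM in MDA-MB-231 (log2 fold change 1.68, SE 0.301, adjusted p = 3.39e-05), and it overlaps MMAB on the other strand. SCD was at 406, 408 and 407 CPM in SUM159 and lower in MDA-MB-231 (log2 fold change -2.02, SE 0.0356, adjusted p = 4.12e-22). SQLE, the squalene epoxidase, was at 66.2, 79.8 and 68.5 CPM in SUM159 and 17.2, 18.4 and 20.3 CPM in MDA-MB-231 (log2 fold change -1.93, SE 0.133, adjusted p = 1.27e-11). All 5 genes separated the lines without overlap, but they were picked for their large fold changes, so this is no separate result. By the moderated test, 80% of the members and 71.1% of all genes differed between the lines. SREBF2 was lower in MDA-MB-231, at -1.11 (adjusted p = 1.7e-08), and SREBF1 and INSIG1 were higher (0.81 and 0.96). With the run 1 wild type libraries in place of run 2, SREBF1 turned to -0.19, PMVK from -1.07 to 0.60 and TM7SF2 from -0.57 to 1.48. The proliferation genes were higher in MDA-MB-231 in 4 of 5 cases (median log2 fold change 1.45), and their part was not tested.

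The SUM159 wild type cells, which carried no vector in either run, themselves differed between runs in 18 of 30 members. In run 2, 7 were higher and 11 lower, against 28.0% and 27% of all genes. SREBF1 was at 36.1, 39.4 and 34.0 CPM in run 2, below the run 1 values (log2 fold change -1.0, SE 0.0827, adjusted p = 7.12e-10), and SQLE at 174, 169 and 159.7 CPM in run 1 was higher than in run 2 (log2 fold change -1.24, SE 0.0891, adjusted p = 7.55e-11). TM7SF2 and PMVK were higher in run 2 by 2.05 (adjusted p = 7.08e-06) and 1.67 (adjusted p = 1.32e-12). The falls of ACAT2 (-0.86), FDPS (-0.98) and SREBF1 (-1.0) between runs were about as large as those of the vector in run 1 (-0.85, -0.78 and -0.83), and both comparisons share the run 1 wild type libraries. The proliferation genes summed to 1633 to 1667 CPM in run 1 and 819 to 825 CPM in run 2. No targeted group was compared with a control of another run.

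The difference in the response to targeting between the lines was tested as an interaction, with both targeted groups of a line averaged. It passed for 8 of 30 members, 6 of them higher in MDA-MB-231 (FASN, IDI1, DHCR7, SC5D, ACLY and FADS1) and 2 lower (SREBF2 and SCD), against 12.4% and 13.0% of the 17182 genes tested, so that 26.7% of the members and 25.4% of all genes passed. SCD had the smallest adjusted p of the members (log2 fold change -0.47, SE 0.0375, adjusted p = 1.08e-08), with values of -0.82 and -0.46 in MDA-MB-231 and -0.25 and -0.13 in SUM159. SREBF1 had a value of -0.18 with an interval of -0.38 to 0.02 (adjusted p = 0.18). For DHCR7, at 0.44 (adjusted p = 0.000929), the average joins MDA-MB-231 values of -0.23 in set 1 and 1.29 in set 2, and for IDI1 it joins 0.15 and 0.88. The calls of FASN and SC5D were each lost without any 1 of 12 of the 18 libraries. Line, medium and run cannot be told apart in this comparison.

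Genes of the same pathways outside the list were read from a set of 38, of which 37 were tested (THRSP was not). With All gRNA 3 were higher and 5 lower, and the counts were 4 and 3 with gRNA 4, 9 and 12 in set 1 and 16 and 9 in set 2. For the vector the counts were 14 and 7 in SUM159 and 16 and 8 in MDA-MB-231, and between the sets 17 and 12. As shares of the 37, those higher and lower were 8.11% and 13.5% with All gRNA, 10.8% and 8.11% with gRNA 4, 24.3% and 32.4% in set 1 and 43.2% and 24.3% in set 2, beside 5.93% and 4.89%, 6.11% and 4.91%, 20.4% and 17.3%, and 27.3% and 25.1% of all genes. They were 37.8% and 18.9% for the vector in SUM159, 43.2% and 21.6% in MDA-MB-231 and 45.9% and 32.4% between the sets, beside the 21.0% and 21.9%, 26.2% and 27.6%, and 25.2% and 26.3% of all genes. The sterol exporters ABCA1 and ABCG1 had the largest values with the vector and in set 2 of MDA-MB-231. ABCA1 was at 13.4, 14.7 and 15.3 CPM in MDA-MB-231 wild type, 171, 166 and 147 CPM in No gRNA, 110.1, 111 and 137 CPM in set 1 and 42.7, 44 and 42.2 CPM in set 2. It rose with the vector by 3.41 (adjusted p = 3.13e-09) on the log2 scale and fell in the targeted groups, with values of -0.44 (adjusted p = 0.00117) in set 1 and -1.89 (adjusted p = 4.16e-08) in set 2. ABCG1 went from 0.372 ± 0.146 CPM in wild type to 4.36 ± 0.696 CPM in No gRNA, 1.51 ± 0.106 CPM in set 1 and 0.619 ± 0.301 CPM in set 2 (SD, n = 3), with log2 fold changes of 3.47 (adjusted p = 2.29e-05), -1.50 (adjusted p = 0.00115) and -2.89 (adjusted p = 4.26e-05) for the vector and the 2 sets. NR1H3, which encodes an LXR receptor, rose by 1.09 (adjusted p = 3.23e-05) with the vector and had values of -1.24 (adjusted p = 3.37e-05) in set 1 and -1.71 (adjusted p = 2.24e-06) in set 2.

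**Figure D5:**
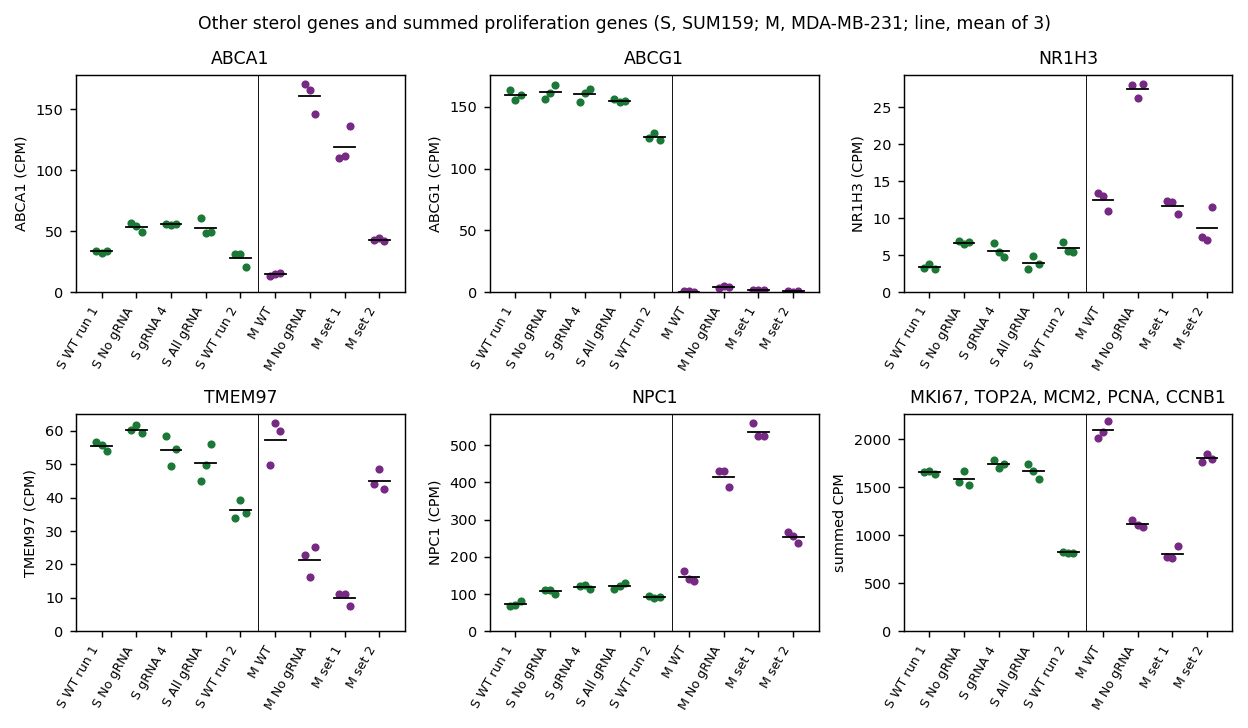
Each panel plots CPM by group for ABCA1, ABCG1, NR1H3, TMEM97, NPC1 and the summed 5 proliferation genes, 1 point per library and a line at the mean of 3. ABCA1 and NR1H3 peak in MDA-MB-231 No gRNA, and TMEM97 and the proliferation sum are low in No gRNA and set 1 and high in wild type and set 2.

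TMEM97, which binds the lysosomal sterol carrier NPC1 and lowers its amount, was at 49.7, 62.3 and 59.9 CPM in MDA-MB-231 wild type, 22.8, 16.3 and 25.2 CPM in No gRNA, 11.2, 11.1 and 7.53 CPM in set 1 and 44.1, 48.4 and 42.5 CPM in set 2. Its log2 fold change was -1.50 (adjusted p = 7.26e-06) with the vector, -1.10 (adjusted p = 0.00176) in set 1 and 1.10 (adjusted p = 0.000127) in set 2. NPC1 was higher in No gRNA than in wild type by 1.45 (adjusted p = 1.79e-08), rose in set 1 by 0.37 (adjusted p = 0.000351) and in set 2 fell by 0.70 (adjusted p = 3.41e-06). SOAT1, which stores cholesterol as esters, fell with the vector (-0.77) and rose in set 1 (0.54) and set 2 (1.02). Of the genes that process the SREBP precursors, MBTPS2 rose with the vector in MDA-MB-231 by 0.88 (adjusted p = 2.79e-07) and in set 2 fell by 0.90 (adjusted p = 2.96e-07), and SCAP passed in none of the targeted or vector comparisons. ELOVL7, an elongase of long fatty acids, rose in all 4 targeted comparisons, by 0.71 with All gRNA, 0.73 with gRNA 4, 1.75 in set 1 and 1.83 in set 2 (adjusted p = 0.00204, 0.00162, 3.18e-08 and 8.65e-09). It was at 27.4, 25.1 and 28.8 CPM in SUM159 No gRNA and 22.7, 23.1 and 24 CPM in MDA-MB-231 No gRNA, below every targeted library of its line.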

How the data were processed

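RNA-seq (50 bp single-end reads) was available for 27 libraries of SUM159 and MDA-MB-231 in 9 groups of 3. The authors quantified transcripts with Salmon against GRCh38 and imported them with tximport, and the deposited table holds estimated counts for each gene, scaled by transcript length and library size, so that they need not be whole. The Salmon version and the strandedness are not given in the sources used here. Every column was matched to a sample, and 56347 of 57165 gene identifiers were paired with a symbol.

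Counts were scaled by TMM and analysed with voom and limma 3.58.1 in R 4.3.3 (edgeR 4.0.16 for scaling), after the study's choice of voom-limma with TREAT. Genes were kept by filterByExpr at a minimum count of 10, and all 30 members passed. Each line was fitted over its 12 libraries (run 1 for SUM159), lines and runs over all 27 libraries, and the interaction over 24. Changed means an adjusted p under 0.05 (Benjamini-Hochberg over all genes tested, two-sided moderated test), and TREAT used a log2 fold change of 1. CPM used TMM over all 27 libraries. With 3 libraries against 3, the smallest two-sided p of an exact permutation test is 0.1, so single-gene p-values rest on limma's pooled spread. Library totals of 15461200 to 21473757 set the counting precision.

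Per-library values are given for SREBF1, SREBF2 and INSIG1 and, in each comparison, for the 5 members with the largest absolute log2 fold change past the moderated test, and the pathway genes outside the list were named after their values were seen. The members and gene lists were chosen with earlier results of these data known. Replicate numbers did not pair the samples. Alternatives were the edgeR quasi-likelihood test, DESeq2 1.42.0 (both on rounded counts), other scalings, no filter, fewer libraries, quality weights, a replicate block, wild type as the control and leaving out each library. The fits were tested on simulated data. For changes of log2 1, the moderated test found 76.8% with All gRNA in SUM159, 57% in set 2 and 55.1% for the interaction. TREAT found 0% of these in All gRNA and set 2, since they lie at its threshold. Of changes of log2 2, TREAT found 64.6% with All gRNA and 60.6% in set 2. A member that did not pass can therefore still have changed. Promoters came from RefSeq (GRCh38.p14) and gene spans from the annotation of the same genome.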

Additional observations from a re-analysis of the deposited data

Results flagged for a closer look

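The response to ZEB1 targeting differed between the lines in 8 members by the interaction test in limma (mean of both targeted groups minus No gRNA in MDA-MB-231, minus the same in SUM159, on the log2 scale). That is 26.7% of the members, near the 25.4% of all genes that passed. The difference was 0.53 for IDI1 (adjusted p = 0.0034), 0.41 for SC5D (adjusted p = 0.044), 0.44 for DHCR7 (adjusted p = 0.000929), 0.39 for ACLY (adjusted p = 0.0099), 0.61 for FASN (adjusted p = 0.0381) and 0.34 for FADS1 (adjusted p = 0.015). It was -0.38 for SREBF2 (adjusted p = 0.0188) and -0.47 for SCD (adjusted p = 1.08e-08). IDI1 was at 31.2, 32.0 and 34.5 CPM in MDA-MB-231 No gRNA, 37.3, 39.3 and 32.2 CPM in set 1 and 52.7, 65.7 and 60.8 CPM in set 2, with set 2 above the other groups. The FASN and SC5D differences lost their call without any 1 of 12 of the libraries, SREBF2 without SUM159 No gRNA replicate 2 or 3, and FADS1 without replicate 1 of either No gRNA group.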

How the results depend on the processing

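Of 2109 recomputed values of members that had passed the test, 1950 kept their direction and side of the threshold, 147 kept the direction and lost the call, and 12 reversed. Leaving out 1 library made up 930 of these values, so the total says little about the choice of control. With wild type as the control, 24 of 43 calls were kept, 10 kept the direction and lost the call, and 9 reversed. Apart from leaving out libraries, the alternatives added 75 calls of members that had not passed, 31 of them with wild type as the control, 11 by DESeq2 and 5 by the edgeR quasi-likelihood test. With wild type as the control, INSIG1 with All gRNA reversed to 0.17, EBP with gRNA 4 to -0.12, SREBF1 to 0.43 in set 1 and 0.31 in set 2, SREBF2 in set 1 to 0.0645, SCD to 0.69 in set 1 and 1.05 in set 2, and ACAT2 and FDPS in set 2 to -0.65 and -0.14. With SUM159 wild type run 1 in the comparison of lines, PMVK reversed to 0.60, TM7SF2 to 1.48 and SREBF1 to -0.19. Members changed with All gRNA numbered 3 when only the compared libraries were fitted and 14 against wild type, and with gRNA 4 they numbered 3 with no filter and 11 against wild type. Against wild type, TREAT called SREBF1 with All gRNA and with gRNA 4, ACAT2 and FDPS in set 1, and no member in set 2. The share of all genes called by TREAT against wild type was not counted, so these calls are not read as a result about the members. In set 2 against No gRNA, TREAT called 2 members by the edgeR quasi-likelihood test and 0 with library totals or with only the compared libraries. DESeq2 called 1 member between All gRNA and gRNA 4.

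Leaving out each library in turn gave 3 to 4 changed members with All gRNA, 3 to 4 with gRNA 4, 12 to 14 in set 1, 20 to 21 in set 2, 11 to 14 and 14 to 17 for the vector in SUM159 and MDA-MB-231, 15 to 16 between the sets, 21 to 23 between lines, 15 to 19 between runs and 5 to 8 for the interaction. TREAT calls in set 2 ranged from 0 to 1. The correlation of same-numbered libraries lay between -0.083 and 0.058, so the numbers did not pair the samples. With the replicate block 5 members changed with All gRNA, 5 with gRNA 4, 13 in set 1 and 21 in set 2, and 136 of 139 single calls were kept. Causes of these shifts were not tested. Depth limits genes such as TM7SF2, at under 10 CPM in every library.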

Other observations

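Genes next to the members in the same pathways also moved in MDA-MB-231. PDSS1, which builds the isoprenoid tail of ubiquinone, was at 19.4, 18.5 and 18.8 CPM in wild type, 7.53, 6.94 and 6.86 CPM in No gRNA, 9.71, 8.85 and 11.2 CPM in set 1 and 15.5, 15.8 and 14.5 CPM in set 2. It was lower with the vector (log2 fold change -1.47, SE 0.101, adjusted p = 2.59e-07) and higher in set 1 (log2 fold change 0.47, SE 0.112, adjusted p = 0.00655) and set 2 (log2 fold change 1.11, SE 0.104, adjusted p = 4.14e-06). TECR, the reductase of the fatty acid elongation cycle, had log2 fold changes of -0.59 (adjusted p = 0.000157) with the vector, -0.68 (adjusted p = 0.000382) in set 1 and 0.58 (adjusted p = 0.000198) in set 2. MYLIP, an LXR target that marks lipoprotein receptors for degradation, rose with the vector (0.50 (adjusted p = 0.00157)), and INSIG2 rose as well (0.57 (adjusted p = 0.00229)).

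In SUM159, the elongation genes HACD3 and ELOVL5 fell in both targeted groups. HACD3, a dehydratase of the elongation cycle, had log2 fold changes of -0.56 (adjusted p = 0.00213) with All gRNA and -0.36 (adjusted p = 0.0235) with gRNA 4, and in set 2 of MDA-MB-231 it rose (0.53 (adjusted p = 2.02e-06)). ELOVL5 had values of -0.24 (adjusted p = 0.00813) and -0.28 (adjusted p = 0.00323) in the SUM159 groups, and NPC2, the soluble lysosomal sterol carrier, rose by 0.37 (adjusted p = 0.00169) and 0.23 (adjusted p = 0.0291). These comparisons share the No gRNA libraries of their line, and the genes were named after their values were seen.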
